A study of Mus musculus with 46 samples.

Results

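The gonads of XX mouse embryos homozygous for a 1bp insertion in Enh13, an enhancer of Sox9, were compared with those of wild-type XX embryos at E12.5, when the fetal testis and ovary have begun to differ. The comparison holds 8 of the 46 libraries of the series: the 5 titled XX Enh13-1bp-ins-hom, replicates 1 to 5, and the 3 titled XX WT, replicates 1 to 3. All 8 were chosen by title and sex, none by its values. Each is a poly(A) RNA library from whole gonads, collected as pairs, so it mixes supporting, germ, stromal, vascular and blood cells, and fewer cells of a type cannot be told apart from less RNA per cell. Wild-type XY gonads (XY WT, n = 3), XY homozygotes for the same insertion (XY Enh13-1bp-ins-hom, n = 5) and XX heterozygotes (XX Enh13-1bp-ins-het, n = 3) serve here as reference groups. The series also holds XY heterozygotes for the insertion (XY Enh13-1bp-ins-het). Its other alleles, in XX and XY, are Enh13-3bp-del (heterozygous and homozygous) and Enh13-3bp-12bp-del (homozygous). These groups enter the fit over all 12 groups and comparisons with the whole series. The labels give no strain, founder line or litter, and for the groups compared here no other allele or agent. Nothing in them says that replicates came from separate embryos, so p-values measure the spread between these libraries, which may be partly technical.

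The supporting cells of the early gonad can become Sertoli cells of a testis or pregranulosa cells of an ovary. In XY gonads SRY, together with NR5A1, raises Sox9 through enhancers that include Enh13, which lies far upstream of the gene. SOX9 protein and FGF9 then sustain Sox9, SOX9 and its relative SOX8 activate Sertoli genes such as Amh, and Sertoli signals recruit fetal Leydig cells and shape the testis cords. In XX gonads RSPO1 and WNT4, through beta-catenin, and FOXL2 keep the pregranulosa program on and Sox9 low.

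Replicate 5 of the homozygotes stood apart, and the counts of calls are therefore given with and without it. Levels are CPM throughout (counts relative to the library total, scaled between libraries by TMM), and fold changes are log2 values ± standard error (SE). Over 15443 genes outside the sex chromosomes, the root mean square distance in log2 CPM of homozygotes 1 to 5 from the wild-type XX mean was 0.565, 0.638, 0.715, 0.533 and 0.882. Their distances from the wild-type XY mean were 0.613, 0.542, 0.516, 0.609 and 0.549. Replicate 5 thus lay farthest from the ovary and had the widest margin towards the testis, while replicate 3 had the shortest distance to the wild-type XY mean, and replicates 1 and 4 lay nearer to wild-type XX. For scale, XX WT 1 to 3 lay 0.529, 0.365 and 0.479 from the mean of their fellows. XY WT 1 to 3 lay 0.509, 0.480 and 0.779 from theirs. XY WT replicate 3 was as far from the wild-type XX mean (0.779), so the XY mean includes a library not nearer to XY. In a within-group check of 12812 genes, the value of replicate 5 was an extreme outlier among the 5 homozygotes for 425 genes (3.32%), against 51 to 206 genes for each of the others. Depth did not separate the libraries: the 8 held 30983648 to 39865775 estimated counts, with replicate 5 at 38319513.

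2 wild-type libraries also stood apart. XX WT replicate 1 had high levels of genes of the adrenal medulla and neural crest, with Dbh, the noradrenaline-synthesizing enzyme of chromaffin cells, at 80.7 CPM against 0.752 and 0.498 in XX WT replicates 2 and 3. The homozygotes were mixed in this, with Dbh at 15.5, 0.0287, 16.2, 15.8 and 0.0259 CPM. XY WT replicate 3 had high levels of mesonephric genes: its summed level of 8 mesonephros and nephric duct genes was 237 CPM, against 14.3 and 22.9 in the other 2 XY WT libraries, and its Sox9 level of 84.0 CPM was the lowest of the 3. The part of either in the results was not tested, but counts of calls are given without each of the 2. Y-linked genes summed to at most 0.672 CPM in the homozygotes, in replicate 5, and to 160.1 CPM or more in the XY homozygotes.

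Of 16040 genes tested with edgeR's quasi-likelihood test, 5187 (32.3%) passed an adjusted p of 0.05 (Benjamini-Hochberg) and are named called here, 2759 higher (17.2%) and 2428 lower (15.1%) in the homozygotes. Without replicate 5 the count was 5604 of 15919 (35.2%), 2952 higher (18.5%) and 2652 lower (16.7%). The calls with and without it shared 4899 genes, all with the same sign, and 288 were made only with it and 705 only without it. The wild-type side weighed more: without XX WT replicate 1, 2 or 3 the counts were 3794, 3026 and 3247. Fold changes also ran with gene length (Spearman rho = −0.383 over 15960 genes, a description across genes), and once that trend was taken out of the counts 3373 genes (21.0%) were called, 1839 higher (11.5%) and 1534 lower (9.56%). The length trend was not confined to XX: for XY homozygotes against XY WT the Spearman rho was −0.512.

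Sox9 rose in every homozygote. It measured 169, 178, 213, 136 and 147 CPM in homozygotes 1 to 5 and 12.1, 7.84 and 8.40 CPM in XX WT 1 to 3, and the groups did not overlap. The log2 fold change was 4.18 ± 0.22 (edgeR, adjusted p = 0.000265) and 4.22 ± 0.22 without replicate 5, which held the second lowest Sox9 of the 5. XX heterozygotes, at 14.1, 11.1 and 10.9 CPM, stayed near wild type. XY WT libraries held 159, 163 and 84.0 CPM, so that the homozygotes lay within or above the wild-type testis range, with a difference from XY WT of 0.33 ± 0.23 (edgeR, adjusted p = 0.497, not called). The low end of that range was XY WT replicate 3 alone, and homozygotes 4 and 5 lay below XY WT replicates 1 and 2.

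Of 8 listed genes around Sox9 on chromosome 11, 3 rose (Sox9, BC006965 and Cog1) and none fell, with and without replicate 5, beside 17.2% of all genes called higher, with a list median of 0.08 against 0.00 for all genes. BC006965, a noncoding gene that starts beside Sox9 and runs the other way, measured 2.79, 2.70, 5.48, 1.36 and 5.74 CPM in the homozygotes and 0.0259, 0.0268 and 0.0933 CPM in wild type, where it rested on 1, 1 and 3 counts. Its fitted log2 fold change was 6.20 ± 0.73 (adjusted p = 0.000998). How strand was handled is not given in the sources used here, so reads of this gene and of Sox9 cannot be separated with certainty. Cog1, a Golgi complex subunit, rose by 0.29 ± 0.05 on the log2 scale, and Kcnj2, the nearest upstream coding neighbour listed, ranged from 3.08 to 12.4 CPM in the homozygotes and 2.02 to 7.84 CPM in wild type and was not called.

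Transcription factors of Sertoli cells rose as a group: 6 of 7 listed were called higher (Sox9, Sox8, Sox10, Dmrt1, Gata4 and Nr5a1), none lower, beside 17.2% of all genes called higher, with a list median log2 fold change of 0.81. Without replicate 5 the count was 5, with Sox10 lost. Sox8, which acts beside Sox9 in Sertoli cells, measured 12.6, 21.5, 28.2, 9.25 and 32.6 CPM against 4.48, 1.85 and 1.59 CPM in wild type, without overlap and with replicate 5 highest (2.99 ± 0.56, adjusted p = 0.00644). Sox10, a relative of Sox8 that is best known from neural crest, measured 22.5, 22.9, 32.0, 14.5 and 35.1 CPM against 7.14, 0.322 and 0.187 CPM, with the one raised wild-type value in the library with high Dbh. Its call (3.31 ± 1.01, adjusted p = 0.0407) was lost without any 1 homozygote or without XX WT replicate 2 or 3 (adjusted p between 0.0533 and 0.0965).

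Dmrt1, a guardian of male fate in later life, rose by 0.81 ± 0.15 (adjusted p = 0.00455). Nr5a1, which drives early gonad growth and steroidogenesis, rose by 0.79 ± 0.12 to 382, 408, 411, 316 and 364 CPM from 188, 216 and 257 CPM. Gata4, needed for the gonad to form, rose by 0.54 ± 0.09. Each of these 3 genes had all 5 homozygotes above all 3 wild-type libraries, by smaller steps than Sox9 and Sox8. Wt1, which marks the early gonad in both sexes, was the one listed factor not called, at 518, 506, 457, 527 and 292 CPM against 421, 471 and 519 CPM, with replicate 5 below all other libraries of both groups.

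The secreted products of Sertoli cells rose in most cases, with levels that spread widely among homozygotes. Of 10 listed, 7 were called higher (Amh, Dhh, Fgf9, Gdnf, Ptgds, Inhbb and Cst9) and none lower, beside 17.2% of all genes called higher, with a median log2 fold change of 3.88. Without replicate 5 the count was 8, with Inha added, and the median 3.33. Amh, the hormone that removes the Müllerian ducts, measured 24.5, 80.5, 136, 18.2 and 869.9 CPM in homozygotes 1 to 5 and 0.259, 0.161 and 0.0933 CPM in wild type, which rested on 10, 6 and 3 counts. All homozygotes lay above wild type, but replicate 5 alone exceeded the wild-type testis, which held 542, 474 and 214 CPM, and replicates 1 and 4 held far less than the lowest of them. The log2 fold change was 10.32 ± 2.34 (adjusted p = 0.0136), and it was no longer called without XX WT replicate 1, 2 or 3 (adjusted p = 0.0524, 0.0539 and 0.0570), while without replicate 5 of the homozygotes it was called at 8.52 ± 1.38.

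Dhh, the Hedgehog ligand that Sertoli cells send to Leydig cells, followed the same order of libraries, at 35.6, 59.2, 99.0, 23.1 and 216 CPM against 1.71, 1.24 and 0.933 CPM in wild type and 199, 168 and 74.9 CPM in XY WT. The log2 fold change was 6.07 ± 0.99 (adjusted p = 0.00412) and 5.40 ± 0.69 without replicate 5. Gdnf, a growth factor for germ cells, measured 5.58, 10.7, 14.0, 5.60 and 35.9 CPM against 0.518, 0.456 and 0.342 CPM (5.03 ± 0.84, adjusted p = 0.00434). Both genes kept the groups apart, with replicate 4 or 1 lowest and replicate 5 highest.

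Ptgds, which makes the prostaglandin that sustains Sox9, measured 6.40, 11.1, 16.0, 4.18 and 96.5 CPM against 0.699, 1.21 and 0.777 CPM and had its call (4.91 ± 1.36, adjusted p = 0.0286) lost without XX WT replicate 1, 2 or 3 (adjusted p = 0.0982, 0.0839 and 0.0973). Inhbb, the beta-B subunit of activin and inhibin, measured 234, 227, 242, 172 and 255 CPM against 96.8, 106 and 124 CPM (1.08 ± 0.13, adjusted p = 0.0011). It was far more even than Amh or Ptgds, with replicate 4 lowest. Cst9, a cystatin of unclear function in these cells, rose by 4.61 ± 0.55.

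Fgf9 broke the order. Its protein is secreted by supporting cells and opposes Wnt4. It measured 23.1, 21.7, 26.7, 19.4 and 15.5 CPM in homozygotes 1 to 5 and 2.07, 2.69 and 2.52 CPM in wild type, and replicate 5, highest for most Sertoli genes, was lowest of the 5 here. The groups did not overlap, the homozygotes lay around the 16.8 to 26.7 CPM of XY WT, and the log2 fold change was 3.16 ± 0.20 (adjusted p = 0.000265) and 3.25 ± 0.15 without replicate 5.

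Among other Sertoli genes (surface proteins, enzymes and others), 10 of 14 were called higher, none lower, beside 17.2% of all genes called higher, with a median of 4.25, and without replicate 5 the count was 10 of 13 with a median of 3.40. Mmd2, a membrane protein, measured 28.6, 31.6, 44.2, 19.5 and 68.9 CPM against 1.22, 0.671 and 0.902 CPM (5.38 ± 0.54, adjusted p = 0.0009). Tesc, a calcium-binding protein, measured 21.2, 35.8, 52.4, 18.7 and 84.9 CPM against 1.11, 0.913 and 0.995 CPM (5.42 ± 0.68, adjusted p = 0.00168). Aard, a small gene marked by strong Sertoli expression, measured 96.5, 134, 169.8, 83.3 and 316 CPM against 7.79, 7.79 and 9.52 CPM. In all 3 the lowest homozygote was replicate 4, and it still exceeded the highest wild-type library many times over.

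Hsd17b3, which converts androstenedione to testosterone, was at 106, 149, 292, 39 and 815 counts in the homozygotes and at 6, 1 and 0 counts in wild type, and the fitted log2 fold change was 6.78 ± 1.42 (adjusted p = 0.00976). Cyp26b1, which breaks down retinoic acid, was already present in wild type at 23.1, 22.1 and 17.9 CPM and measured 91.4, 86.5, 144, 66.9 and 201 CPM in the homozygotes (2.51 ± 0.39, adjusted p = 0.00336). Cbln4 and Mro also rose, by 4.22 ± 0.54 and 2.43 ± 0.29. Less secure were Cbln1, Ren1 and Col9a3: their calls (adjusted p = 0.0157, 0.0353 and 0.0336) were lost without XX WT replicate 2 or 3 (adjusted p between 0.0592 and 0.110), those of Cbln1 and Ren1 also without XX WT replicate 1 (0.0578 and 0.114), and those of Ren1 and Col9a3 without homozygote replicate 3 (0.0511 and 0.0518). Cldn11, a tight-junction protein of Sertoli cells, and Vnn1, a pantetheinase of these cells, were not called and stood out only in replicate 5, at 31.4 and 37.7 CPM against 9.63 to 12.6 and 4.62 to 8.06 CPM in replicates 1 to 4 and 11.4 to 14.1 and 5.00 to 5.75 CPM in wild type.

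Over the 23 Sertoli genes called, all 5 homozygotes lay above the XX WT range for every gene. These genes were called on the same libraries, so this follows in part from how they were picked. The share so apart over all called genes was not computed. Replicate 5 was the highest of the 5 for 18 and replicate 3 for the other 5, while replicate 4 was lowest for 20. The number that reached the XY WT range was 11, 13, 18, 8 and 22 in homozygotes 1 to 5, and against XY WT replicates 1 and 2 alone it was 1, 1, 3, 0 and 14. The homozygotes were therefore spread along a range that replicate 4 opened and replicate 5 closed.

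**Figure D1:**
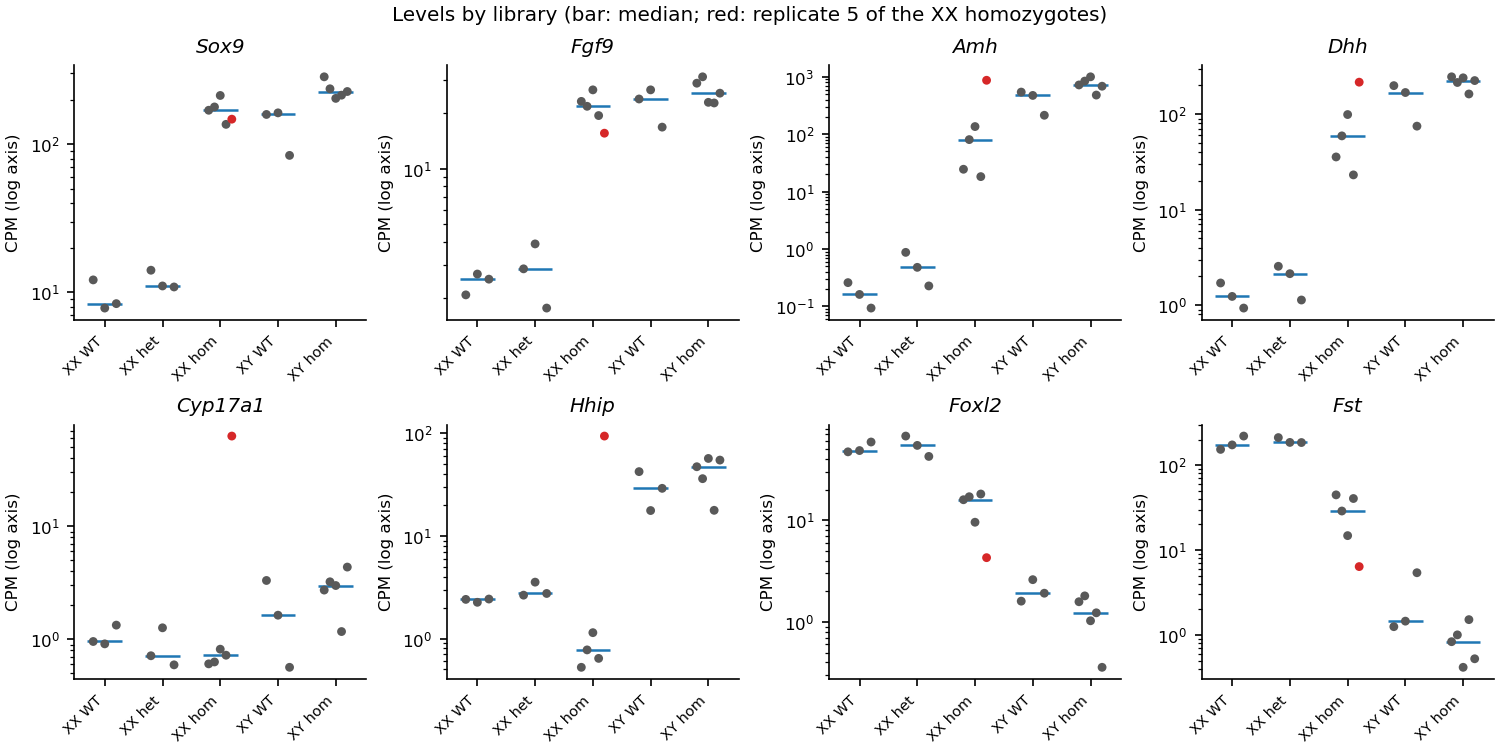
Levels of 8 genes (CPM, log axis) in every library of XX WT, XX heterozygotes, XX homozygotes, XY WT and XY homozygotes. Each point is 1 library, the bar is the group median, and replicate 5 of the XX homozygotes is red: Sox9 and Fgf9 are within or close to the XY WT range in all 5 homozygotes, Amh and Dhh span from 18.2 to 870 CPM and from 23.1 to 216 CPM, Cyp17a1 and Hhip are high only in replicate 5 of the 5, and Foxl2 and Fst lie between the wild types.

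FGF signalling readouts rose beside Fgf9. Of 11 tested genes of the pathway 6 were called higher (Fgf9, Spry2, Spry4, Dusp6, Etv4 and Etv5) and 1 lower (Fgfr2), beside 17.2% and 15.1% of all genes, with a median of 0.57, and without replicate 5 Fgfr3 was also called lower. Etv4, a transcription factor induced by FGF, measured 49.3, 48.4, 51.7, 34.6 and 25.2 CPM against 14.1, 12.9 and 8.86 CPM (1.83 ± 0.28, adjusted p = 0.00277). Spry4, a feedback inhibitor, measured 38.8, 48.0, 50.1, 33.2 and 35.9 CPM against 18.3, 18.1 and 15.9 CPM (1.26 ± 0.15, adjusted p = 0.000998). Dusp6, a phosphatase of ERK, rose by 0.92 ± 0.10. As with Fgf9, the Etv4 level of replicate 5 was the lowest of the 5, and for all 3 genes no homozygote overlapped wild type. Fgfr2, the receptor through which FGF9 acts in supporting cells, fell by 1.18 ± 0.14 (adjusted p = 0.00109).

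The promoters of Fgf9 and Foxl2 are shown because these genes moved in opposite directions in all homozygotes, as the 250 bases before the start of each gene (RefSeq, GRCm38.p6), Fgf9 from chr14:58072436-58072685 and Foxl2 from chr9:98955357-98955606, both on the + strand. Capitals mark the letters AGATAA on either strand, which were searched as the motif of GATA4.
Fgf9: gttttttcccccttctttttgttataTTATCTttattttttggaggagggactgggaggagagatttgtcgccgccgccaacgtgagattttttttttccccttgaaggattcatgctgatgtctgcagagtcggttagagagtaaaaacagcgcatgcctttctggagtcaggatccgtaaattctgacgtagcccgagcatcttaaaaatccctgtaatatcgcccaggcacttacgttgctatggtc
Foxl2: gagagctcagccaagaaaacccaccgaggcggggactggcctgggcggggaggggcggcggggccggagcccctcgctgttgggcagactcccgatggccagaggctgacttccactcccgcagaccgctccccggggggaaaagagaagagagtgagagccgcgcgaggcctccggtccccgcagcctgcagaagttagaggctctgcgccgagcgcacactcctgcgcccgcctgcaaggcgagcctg
Searched on both strands, AGATAA occurred in 10% of 32851 promoters of this length, the SOX motifs AACAAT and ACAAAG in 9.4% and 16.5%, and the NR5A1 motif CAAGGTCA in 1.3%. Among 6 promoters of Dhh, Fgf9, Gdnf (2 entries), Foxl2 and Wnt4, matches were found for GATA4 in Fgf9, 224 to 219 bases before the start and reverse complemented, and in 1 entry of Gdnf, 84 to 79 bases before it. No SOX or NR5A1 match lay in these windows, which says only that these letters are not in them.

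Pregranulosa transcription factors fell in part. Of 9 listed, 5 were called lower (Foxl2, Irx3, Irx5, Lef1 and Msx1) and none higher, beside 15.1% of all genes called lower, with a median of −1.10, and without replicate 5 the count was 8, with Runx1, Sp5 and Emx2 added, and the median −0.91. Foxl2, the factor that holds granulosa identity, measured 15.9, 17.1, 9.58, 18.2 and 4.29 CPM in homozygotes 1 to 5 and 47.2, 48.6 and 59.0 CPM in wild type. The groups did not overlap, and the log2 fold change was −1.97 ± 0.40 (adjusted p = 0.00883) and −1.74 ± 0.20 without replicate 5. The XY WT libraries, at 1.60, 2.61 and 1.92 CPM, lay below all 5 homozygotes.

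Irx3, which acts with Irx5 in contacts between granulosa and germ cells, measured 17.0, 25.7, 13.8, 23.8 and 9.33 CPM against 43.2, 56.9 and 81.8 CPM (−1.74 ± 0.34, adjusted p = 0.00716). Lef1, a partner of beta-catenin, fell by 0.91 ± 0.16 (adjusted p = 0.00435). For both genes every homozygote lay below every wild-type library. The calls of Irx5 and Msx1 (adjusted p = 0.0246 and 0.0392) were lost without homozygote replicate 3 (0.0564 and 0.0788) and without XX WT replicate 2 or 3 (adjusted p between 0.0867 and 0.119), and that of Msx1 also without homozygote replicate 2 (0.0540) or XX WT replicate 1 (0.0837). Runx1, a second regulator of pregranulosa identity, measured 39.6, 39.4, 30.9, 40.7 and 10.2 CPM against 47.9, 48.0 and 53.8 CPM. Its replicate 5 level was far under the others, its fold change was not called with all 5, and without replicate 5 it fell by 0.38 on the log2 scale (adjusted p = 0.0149, range over its alternatives 0.0149 to 0.469).

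Signals and other genes of pregranulosa cells fell in part as well: 8 of 13 were called lower (Wnt4, Rspo1, Fst, Bmp2, Axin2, Rnf43, Notum and Kitl), none higher, beside 15.1% of all genes called lower, with a median of −0.87, and 9 without replicate 5, with Lypd6 added. Fst, follistatin, an antagonist of activin, measured 44.6, 28.8, 14.8, 40.5 and 6.39 CPM against 153, 173 and 219.9 CPM (−2.73 ± 0.54, adjusted p = 0.00844). Wnt4, the ligand that opposes Fgf9, measured 128, 129, 93.0, 138 and 47.1 CPM against 263, 264 and 336 CPM (−1.40 ± 0.32, adjusted p = 0.0128, and −1.21 ± 0.14 without replicate 5). Neither gene overlapped between the groups, replicate 5 was lowest for both, and the Wnt4 call was lost without XX WT replicate 3 (adjusted p = 0.0536).

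Rspo1, which amplifies WNT signals, measured 34.3, 39.5, 29.6, 37.5 and 21.5 CPM against 46.7, 56.5 and 72.1 CPM (−0.83 ± 0.21, adjusted p = 0.0176). The calls of Rspo1 and of Bmp2, a BMP ligand of the ovary (−1.12 ± 0.29, adjusted p = 0.0222), were lost without XX WT replicate 2 (0.0542 and 0.0709) or 3 (0.0762 and 0.0781). Axin2, a direct target and brake of beta-catenin, measured 30.3, 35.0, 27.9, 37.9 and 27.5 CPM against 58.8, 73.1 and 76.4 CPM (−1.11 ± 0.13, adjusted p = 0.000891). Its 5 homozygous values lay within a narrow band well below wild type. Rnf43 and Notum, further feedback inhibitors of WNT, fell by 1.28 ± 0.20 and 0.90 ± 0.17, and the call of Notum was lost in the edgeR fit over all 12 groups (0.121). Lgr5 of the same list was not called in the main test. It was called higher by DESeq2 (0.84, adjusted p = 0.00636), in the edgeR fit over all 12 groups (0.00228) and with the length trend removed (0.0408). Kitl, the KIT ligand that supports germ cells, measured 466, 395, 363, 391 and 361 CPM against 588, 716 and 902 CPM (−0.87 ± 0.13, adjusted p = 0.00226).

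Over the 13 pregranulosa genes called, replicate 5 was the lowest homozygote for all 13, and the 5 homozygotes lay below the XX WT range except replicate 4 for Irx5. As with the Sertoli genes, lying apart from XX WT follows in part from picking called genes. The number that reached down into the XY WT range was 5, 4, 7, 4 and 8 in homozygotes 1 to 5. Against XY WT replicates 1 and 2 alone the numbers were 1, 0, 2, 1 and 4.

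**Figure D2:**
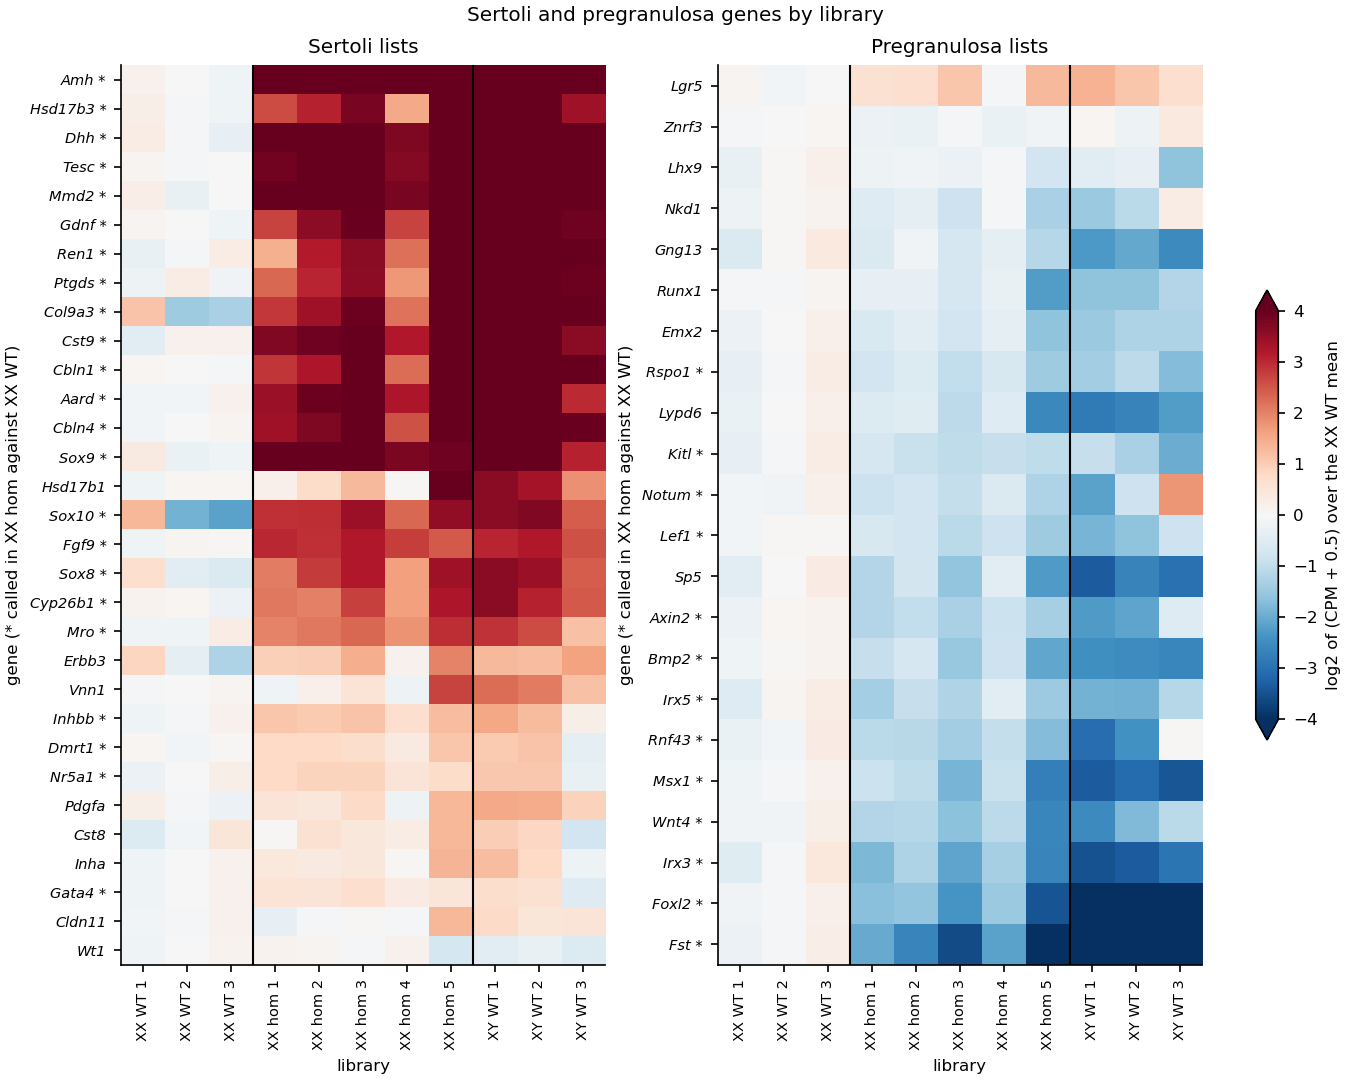
Difference of log2 (CPM + 0.5) from the XX WT mean for the tested genes of the Sertoli and pregranulosa lists (rows) in XX WT 1 to 3, XX homozygotes 1 to 5 and XY WT 1 to 3 (columns), with an asterisk at genes called in the homozygotes. Sertoli genes marked as called are above the XX WT mean and pregranulosa genes so marked below it in all 5 homozygotes. For most of them replicate 5 has the deepest colour or shares it. The colour scale is capped at both ends, so values beyond a cap look alike.

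**Figure D3:**
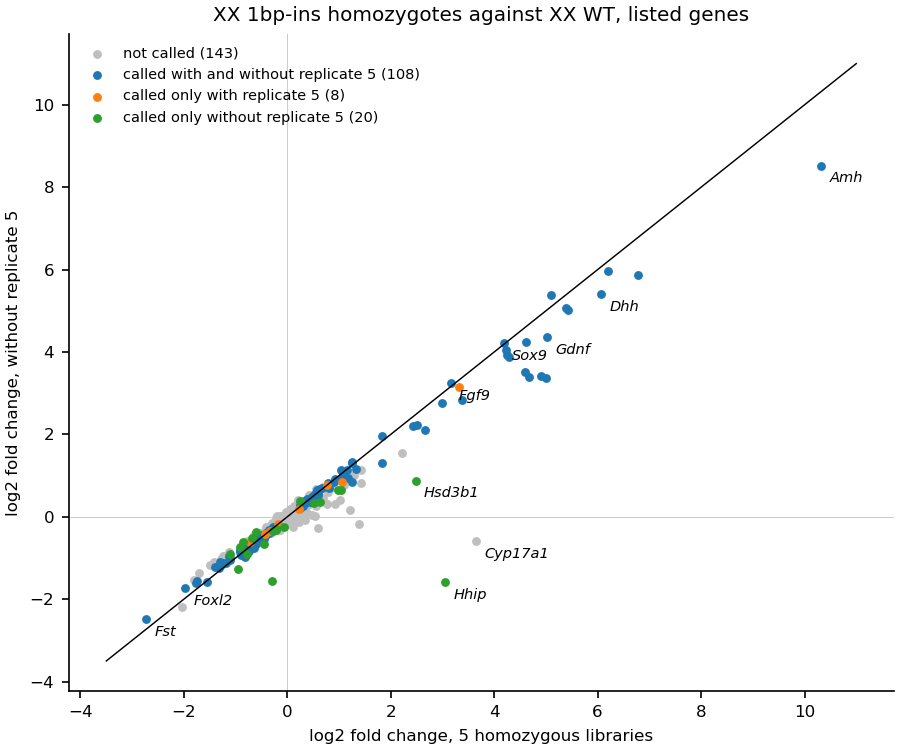
Log2 fold change of XX homozygotes against XX WT with all 5 homozygotes (x axis) and without replicate 5 (y axis) for 279 listed genes, coloured by call. 108 genes were called both ways, 8 only with replicate 5, 20 only without it and 143 neither way, and Hhip lies far off the diagonal, at 3.05 with replicate 5 and −1.58 without it.

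Several Hedgehog targets and steroidogenic genes set replicate 5 apart from the other homozygotes. Of 9 tested Hedgehog pathway genes 2 were called higher (Dhh and Gli1) and 2 lower (Gli3 and Sufu), near the 17.2% and 15.1% of all genes, with a median of 0.42 that became −0.10 without replicate 5, when Hhip was also called lower. Gli1, a transcription factor and direct target of the pathway, measured 6.60, 14.0, 18.9, 11.3 and 41.8 CPM in homozygotes 1 to 5 and 5.98, 5.53 and 4.14 CPM in wild type, against 45.6, 44.3 and 46.8 CPM in XY WT. Its call (1.84 ± 0.58, adjusted p = 0.0448) was lost without homozygote replicate 2 or 3 (0.0614 and 0.0797) or without XX WT replicate 1, 2 or 3 (0.110, 0.118 and 0.142), but stood without replicate 5 (1.31 ± 0.34, adjusted p = 0.0192, range over its alternatives 0.000698 to 0.142). Ptch1, the receptor and also a target, measured 43.6, 57.6, 88.3, 44.2 and 216 CPM against 50.9, 46.4 and 46.3 CPM and was not called. Its homozygotes overlapped wild type, and replicate 5 alone lay within the 186 to 273 CPM of XY WT.

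Hhip, a decoy receptor induced by Hedgehog signals, turned direction. It measured 0.524, 0.775, 1.14, 0.641 and 93.9 CPM in homozygotes 1 to 5 and 2.41, 2.25 and 2.43 CPM in wild type, so that 4 homozygotes lay below and replicate 5 far above. With all 5 it was not called (3.05 ± 2.06, adjusted p = 0.296), and without replicate 5 it fell by 1.58 ± 0.28 (adjusted p = 0.00312, range over its alternatives 0.00312 to 0.446). XY WT libraries held 42.3, 17.7 and 29.1 CPM. Gli3, chiefly a repressor, and Sufu, a negative regulator, fell by 0.35 ± 0.08 and 0.42 ± 0.07, and with the gene length trend removed Gli3 stood at 0.06 (adjusted p = 0.648).

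Of 12 steroidogenic and fetal Leydig genes 2 were called higher (Star and Hsd3b6) and 1 lower (Por), beside 17.2% and 15.1% of all genes, with a median of 0.82 (Por lost without XX WT replicate 2 or 3, 0.130 and 0.140, and Hsd3b6 without XX WT replicate 1 or 2, 0.0647 and 0.0707). Without replicate 5 the count was 5 of 11 higher (Star, Hsd3b1, Hsd3b6, Scarb1 and Fdxr), 1 lower (Lhcgr), with a median of 0.22. Star, which brings cholesterol into mitochondria, measured 15.5, 12.9, 11.2, 11.7 and 34.1 CPM against 7.01, 7.03 and 7.68 CPM (1.26 ± 0.39, adjusted p = 0.0393). All homozygotes lay above wild type, and the call was lost without homozygote replicate 1 or 2 (0.0587 and 0.0506) or without XX WT replicate 1, 2 or 3 (0.114, 0.116 and 0.105). Cyp17a1, the 17-hydroxylase of androgen synthesis, measured 0.607, 0.631, 0.819, 0.724 and 63.0 CPM against 0.958, 0.913 and 1.34 CPM in wild type and 3.32, 1.64 and 0.566 CPM in XY WT. Hsd3b1, the 3-beta-hydroxysteroid dehydrogenase of Leydig cells, measured 6.76, 5.20, 9.01, 5.54 and 75.2 CPM against 2.92, 3.41 and 4.73 CPM.

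Insl3, the hormone of testis descent, was at 17, 8, 10, 7 and 661 counts in the homozygotes and at 0, 0 and 12 counts in wild type. For Cyp17a1, Hsd3b1 and Insl3 replicate 5 exceeded every other homozygote and every XY WT library, and replicates 1 to 4 of Cyp17a1 lay below wild type. None of these 3 was called with all 5 (adjusted p = 0.216, 0.127 and 0.148), and Hsd3b1 rose by 0.88 ± 0.24 without replicate 5 (adjusted p = 0.0199, range over its alternatives 0.0051 to 0.272). Cyp21a1, an adrenal cortex enzyme, also reached 2.77 CPM in replicate 5, against at most 0.0279 CPM in replicates 1 to 4.

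Liver and adult globin genes were also high in replicate 5. The ratio of adult-type Hbb-bt to embryonic Hbb-bh1 was 14.8 in replicate 5, against 0.92 to 2.06 in the other homozygotes and 0.54 to 2.12 in all 45 other libraries of the series. Hbb-bh1 itself was at 353, 303, 208, 391 and 104 CPM in homozygotes 1 to 5 and Hbb-b1, an adult beta globin, at 122, 201, 303, 182 and 2578 CPM. Globin switching from embryonic to adult chains proceeds during this part of gestation. Afp, alpha-fetoprotein of fetal liver and yolk sac, measured 1.79, 0.804, 1.61, 0.474 and 229.9 CPM against 3.03, 7.57 and 17.9 CPM in wild type, and Alb, Apoa1 and Ttr were at 9.13, 50.6 and 33.5 CPM in replicate 5 against at most 0.893 CPM in the other homozygotes. The summed level of 10 liver genes was 423 CPM in replicate 5 and 25.2 to 26.4 CPM in the other homozygotes, and 32.5 to 55.3 CPM in XX WT. Higher liver sums were found in 2 libraries of other groups, at 1834 CPM in XX Enh13-3bp-12bp-del-hom replicate 1 and 4184 CPM in XY Enh13-3bp-del-hom replicate 1, so the liver genes did not set replicate 5 apart from the whole series. These liver, globin and neural crest lists were added after values were seen, and their part in the Leydig, Hedgehog and Sertoli values of replicate 5 was not tested.

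**Figure D4:**
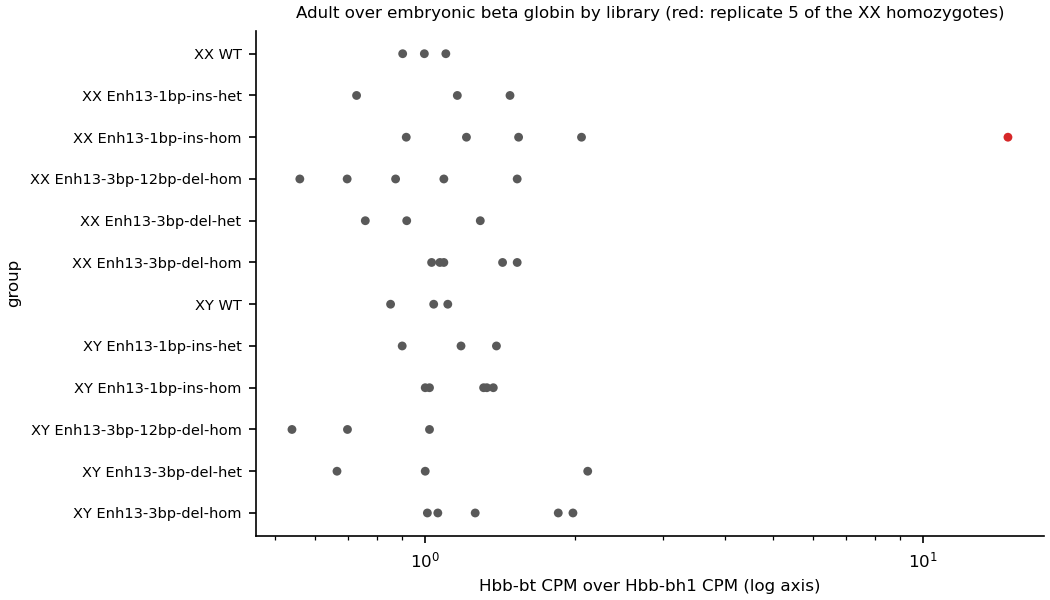
Ratio of adult-type Hbb-bt to embryonic Hbb-bh1 (log axis) in all 46 libraries by group, 1 point a library. Replicate 5 of the XX homozygotes, in red, is at 14.8, and the 45 others are between 0.54 and 2.12.

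By the rule for genes with the widest gap between replicate 5 and its nearest fellow homozygote, the 10 highest were Afp, Hhip, Pdyn, Kazald1, Cacna2d2, Hbb-b1, Inhba, Hsd3b1, Osr2 and Ren1, with gaps from 6.96 down to 2.73 in log2 CPM. Inhba, the beta-A subunit of activin and a product of fetal Leydig cells, measured 1.08, 1.95, 2.58, 2.67 and 22.7 CPM against 1.66, 2.25 and 3.27 CPM. The 10 lowest were Tgm3, Taf7l, Sprr2d, Scrt2, Chrm4, Svopl, Tph2, Ces1h, Nefl and Calb1, with gaps from 3.58 down to 2.23.

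Signals tied to male germ cells rose while no general germ cell marker was called in the main test. Of 7 tested genes of male germ cell differentiation and NODAL signalling 3 were called higher (Nodal, Lefty1 and Lefty2) and none lower, beside 17.2% of all genes called higher, with and without replicate 5, with medians of 1.32 and 1.15. Lefty2, an inhibitor induced by NODAL, measured 18.6, 24.5, 41.2, 9.55 and 54.7 CPM against 1.94, 1.61 and 1.15 CPM (4.25 ± 0.66, adjusted p = 0.00324). Lefty1, its relative, measured 5.02, 7.38, 8.96, 2.62 and 19.3 CPM against 1.19, 0.805 and 0.529 CPM (3.37 ± 0.69, adjusted p = 0.00861). Both held the order of Amh, with replicate 4 lowest and replicate 5 highest. Nodal, a growth factor of the TGF-beta family, rose by 1.32 ± 0.34 (adjusted p = 0.0178), a call that did not stand without XX WT replicate 3 (0.0682).

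With or without replicate 5, edgeR made no call among 15 general germ cell genes (median 0.21) or among 9 tested genes of female germ cells and meiosis (median 0.12). This depended on the test for Utf1, called higher by DESeq2 (0.69, adjusted p = 0.00594) and in the edgeR fit over all 12 groups (0.0409). Utf1 was also called without homozygote replicate 4 (0.0180), and Mael was called by DESeq2 (0.0498). With the replicate number as a block Utf1, Mael, Dnd1, Rhox9 and Hormad1 were called higher. Nanos2 and Dnmt3l of the male list and Stra8, Spo11 and Mei1 of the meiosis list were too low to be tested.

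Of 14 tested retinoic acid genes 3 were called higher, all enzymes (Aldh1a1, Cyp26a1 and Cyp26b1), and none lower, with and without replicate 5, a share near the 17.2% of all genes called higher, with medians of −0.12 and −0.02. Aldh1a1, which makes retinoic acid, measured 150.5, 188, 243, 130.4 and 604 CPM against 35.2, 46.8 and 44.9 CPM (2.66 ± 0.57, adjusted p = 0.0109). Cyp26a1, which breaks it down, was at 38, 40, 16, 37 and 3 counts in the homozygotes against 1, 1 and 0 counts in wild type, with XY WT at 0.117, 0.121 and 0.0629 CPM. Replicates 1, 2 and 4 were highest and replicate 5 lowest, and the fitted log2 fold change was 5.10 ± 1.11 (adjusted p = 0.00862) and 5.39 ± 0.69 without replicate 5.

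Cell cycle genes were mostly higher in the homozygotes. Of 21 listed 15 were called higher and 1 lower, with and without replicate 5, with medians of 0.35 and 0.39 against 17.2% called higher among all genes. With the length trend removed the count was 12 higher and 1 lower. Ccnd1, cyclin D1, measured 228, 236, 237, 222 and 149 CPM against 132, 99.5 and 88.2 CPM (1.03 ± 0.19, adjusted p = 0.00528). Cdkn1b, the inhibitor p27 that marks pregranulosa cells leaving the cycle, measured 78.7, 71.7, 56.3, 78.2 and 54.8 CPM against 147, 172 and 199.5 CPM (−1.32 ± 0.15, adjusted p = 0.000967). Neither gene overlapped between the groups. Pcna, a DNA clamp of replication, rose by 0.67 ± 0.09. Mki67, a general marker of cycling cells, was not called, at 231, 227, 258, 166 and 292 CPM against 269.9, 312 and 262 CPM. The calls of Ccnd2, Mcm6 and Ccne2 were lost without at least 6 single libraries in turn (highest adjusted p 0.0980, 0.116 and 0.159, each without XX WT replicate 3), and those of Ccnb1, Ccne1 and Mcm2 without XX WT replicate 3 (0.0808, 0.0777 and 0.0657).

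Basement membrane genes fell in part: 8 of 15 were called lower (Lama1, Lama5, Lamb2, Lamc1, Col4a5, Nid2, Hspg2 and Agrn) and none higher, beside 15.1% of all genes called lower, with a median of −0.55, and without replicate 5 the count was 10 lower and 1 higher (Col18a1). With the length trend removed it was 8 lower and 1 higher. Lama1, a laminin of the early gonad, measured 90.1, 79.1, 93.0, 75.3 and 112 CPM against 125, 172 and 189 CPM (−0.83 ± 0.16, adjusted p = 0.00547). Agrn, agrin, measured 157, 130.4, 124, 143 and 186 CPM against 243, 259 and 256 CPM (−0.75 ± 0.12, adjusted p = 0.00234). Replicate 5 was the highest homozygote for both genes and no homozygote reached wild type. Hspg2 was no longer called without XX WT replicate 2 (0.0539) or 3 (0.0563).

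Of 16 endothelial genes 8 were called lower (Pecam1, Kdr, Tek, Tie1, Flt1, Flt4, Erg and Ephb4) and 1 higher (Efnb2), beside 15.1% and 17.2% of all genes, with a median of −0.30. Without replicate 5 the counts were again 8 and 1, with Flt4 lost and Cdh5 added. Efnb2, an arterial ligand, measured 99.4, 106, 112, 91.4 and 102 CPM against 71.7, 66.9 and 71.2 CPM (0.57 ± 0.07, adjusted p = 0.00109). With the length trend removed 3 were lower and 1 higher, and the calls of Pecam1, Kdr, Tek, Flt1, Flt4, Erg and Ephb4 were each lost without XX WT replicate 2 (adjusted p between 0.0622 and 0.143). The summed level of the 16 was 846 to 1027 CPM in the homozygotes and 1087 to 1154 CPM in XX WT.

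Among 12 macrophage genes 2 were called lower (Adgre1 and Mrc1), beside 15.1% of all genes, and 1 without replicate 5 (Mrc1 lost), with a summed level of 51.4 to 110.5 CPM in the homozygotes and 94.5 to 134 CPM in XX WT, and the call of Adgre1 was lost without XX WT replicate 1 (0.0677). Among 11 erythroid genes 3 were called higher, beside 17.2% of all genes, 1 without replicate 5 and none with the length trend removed, with sums of 7750 to 13630 CPM and 4219 to 8555 CPM. Of 7 tested mesonephros and nephric duct genes 2 were called lower (Pax8 and Ret), beside 15.1% of all genes, and 3 without replicate 5 (Pax2 added). The mesonephros sums were 21.4 to 40.8 CPM in the homozygotes and 50.5 to 85.4 CPM in XX WT and did not overlap. None of 6 tested adrenal and 5 tested surface epithelium genes was called, and without replicate 5 Muc16 of the latter was called lower. In a list of 14 stroma genes Tcf21, a factor of gonadal stroma, rose by 0.91 ± 0.12 (adjusted p = 0.00146), and Pdgfrb and Maf were called lower, beside 17.2% and 15.1% of all genes. Without replicate 5 Tcf21 was again called higher and Pdgfra and Maf lower. With the length trend removed Pdgfrb (−0.20, edgeR adjusted p = 0.340) and Maf (−0.33, adjusted p = 0.147) were not called. Without XX WT replicate 3 the calls of Mrc1, Pax8, Pdgfrb and Maf were lost (0.0837, 0.160, 0.0687 and 0.0800). The part of these cell types in the other results was not tested.

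**Figure D5:**
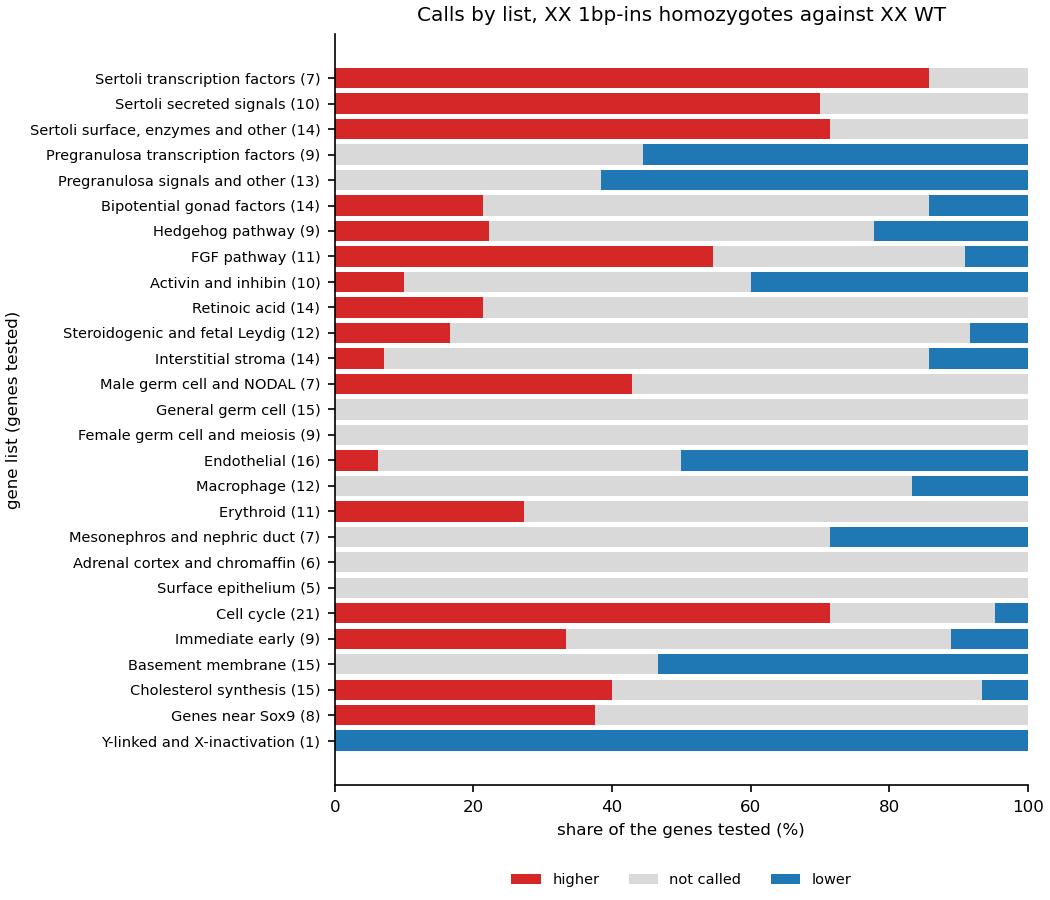
Share of tested genes in each list called higher, called lower or not called in XX homozygotes against XX WT. The 3 Sertoli lists hold only higher calls, the 2 pregranulosa lists only lower calls, and the general germ cell, meiosis, adrenal and surface epithelium lists none.

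Xist, which silences 1 X chromosome in cis, fell: it measured 54.3, 52.8, 51.2, 40.9 and 54.9 CPM against 157, 164 and 132 CPM (−1.55 ± 0.10, adjusted p = 0.000278), and its log2 fold change was −0.96 with the length trend removed (adjusted p = 0.00223, range over its alternatives 6.53e-36 to 0.00447). The groups did not overlap, and XX heterozygotes held 53.5, 93.1 and 90.1 CPM. Low Xist was not confined to homozygotes for the insertion. Xist measured 37.2, 33.4 and 38.8 CPM in XX Enh13-3bp-del-het, a group with Sox9 at 14.4 CPM or less. It ranged from 51.0 to 65.0 CPM in XX Enh13-3bp-del-hom and from 67.3 to 188.1 CPM in XX Enh13-3bp-12bp-del-hom. The cause of these differences was not tested. Of 596 tested X-linked genes 102 (17.1%) were called higher and 88 (14.8%) lower, near the shares over all genes, and their median fold change of 0.03 was close to the 0.00 of 15090 autosomal genes.

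Outside the lists, the 15 genes that rose most without overlap between the groups were Ankrd63, Mt3, Fzd9, Prokr2, Dusp15, Zar1, Col9a1, Ctrb1, Smoc2, Col2a1, Mall, Fstl4, Nr4a3, Tox2 and Gstm6. Mt3, a metallothionein, measured 4.91, 9.70, 10.6, 5.46 and 20.3 CPM against 0.129, 0.564 and 0.529 CPM (4.67 ± 0.69, adjusted p = 0.00246). Col2a1, the type II collagen of cartilage, measured 35.8, 71.4, 106, 30.3 and 228 CPM against 15.4, 6.39 and 6.81 CPM (3.32 ± 0.81, adjusted p = 0.0179). Nr4a3, an orphan nuclear receptor, measured 4.83, 4.42, 7.74, 3.65 and 4.01 CPM against 0.492, 0.376 and 0.777 CPM (3.19 ± 0.35, adjusted p = 0.000833). Nr4a3 was even across the homozygotes, whereas Mt3 and Col2a1 had replicate 5 highest. Col2a1, Ankrd63 and Smoc2 lost their calls without XX WT replicate 2 (0.0699, 0.0572 and 0.0919) and without at least 1 other XX WT library.

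The 15 that fell most were Slc7a11, Stum, Ryr2, Insyn2b, Cacna1i, Efcab7, Cd83, Tshr, Fat4, Csgalnact1, Rnf152, Col12a1, Sbspon, Klhdc7a and Ahnak. Slc7a11, a cystine transporter, measured 8.11, 2.38, 3.40, 5.29 and 1.45 CPM against 25.6, 24.1 and 25.7 CPM (−2.58 ± 0.47, adjusted p = 0.00537). Fat4, a large protocadherin, measured 48.6, 38.9, 32.2, 57.8 and 42.8 CPM against 138, 186 and 222 CPM (−2.03 ± 0.20, adjusted p = 0.000811, and −1.44 with the length trend removed). Tshr, the thyrotropin receptor, measured 1.68, 2.01, 0.794, 1.62 and 0.284 CPM against 4.63, 6.04 and 5.57 CPM (−2.06 ± 0.49, adjusted p = 0.0128). Replicate 5 was lowest for Slc7a11 and Tshr and not for Fat4, and the call of Klhdc7a was lost without XX WT replicate 1, 2 or 3 (0.0530, 0.0562 and 0.0729).

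The number of genes called between the XX homozygotes and a wild-type testis changed with replicate 5 and with the test. Against XY WT, edgeR called 20 of 15916 genes (0.126%), 8 higher (0.0503%) and 12 lower (0.0754%) in the XX homozygotes. Without replicate 5 it called 575 of 15784 (3.64%), 307 higher (1.95%) and 268 lower (1.7%), with all 20 among them. With all 5 homozygotes DESeq2 called 638 (405 higher, 233 lower) and the edgeR fit over all 12 groups 1960 (888 and 1072). The edgeR counts were 6 to 13 without any 1 of the other 7 libraries. Of the called genes outside the sex chromosomes, the highest by the naming rule were Epx, Gng13, Coch and Ptpro, and the lowest Akna, Cyp2s1, Wnk4 and Arhgef26. Coch, a secreted matrix protein, measured 9.08, 11.9, 8.73, 6.21 and 11.2 CPM in the homozygotes against 3.23, 3.00 and 3.05 CPM in XY WT and 1.53, 2.04 and 1.62 CPM in XX WT (1.61 ± 0.22 against XY WT, adjusted p = 0.0383), above both wild types. The XX homozygotes serve in this comparison and in that with XX WT, so these comparisons share libraries and are not independent.

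Pregranulosa genes were among the 575. Without replicate 5, 6 of 9 pregranulosa factors (Foxl2, Runx1, Irx3, Msx1, Sp5 and Emx2) and 4 of 13 pregranulosa signals (Fst, Bmp2, Lypd6 and Gng13) were called higher than in XY WT and none lower, beside 1.95% of all genes called higher. With all 5 the counts were 0 and 1 (Gng13), beside 0.0503% of all genes, and the call of Gng13 was lost without any 1 of the other 7 libraries (adjusted p between 0.0893 and 0.22). Each of these 10 folds moved by less than its SE with all 5: Foxl2 differed from XY WT by 2.67 ± 0.49 with all 5 (adjusted p = 0.0901) and 2.90 ± 0.28 without replicate 5, Fst by 3.32 ± 0.79 and 3.57 ± 0.62, and Bmp2 by 1.44 ± 0.31 and 1.61 ± 0.19. With all 5 homozygotes Foxl2, Irx3, Msx1, Sp5, Fst, Bmp2 and Lypd6 were called by DESeq2 and in the fit over all 12 groups (adjusted p between 1.85e-07 and 0.00254). Among the 3 Sertoli lists without replicate 5, Wt1 was called higher and Vnn1, Cldn11 and Hsd17b1 lower. In the Hedgehog list Ptch1, Gli1, Gli2 and Hhip were called lower without replicate 5 and none with it. Hhip differed from XY WT by −5.25 ± 0.36 without replicate 5 and by −0.62 ± 1.61 with it.

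In XY homozygotes against XY WT the number of calls depended on the test: edgeR called 0 of 15693 genes (0.0%), with 2232 at an unadjusted p under 0.05, DESeq2 called 120 (69 higher, 51 lower), and the edgeR fit over all 12 groups 802 (273 higher, 529 lower). The difference in Sox9 was 0.78 ± 0.20 (edgeR, adjusted p = 0.341, not called), with an adjusted p of 0.0242 by DESeq2 and 0.0211 in the fit over all 12 groups (range over its alternatives 0.0211 to 0.674). The difference between the effect in XX and that in XY, tested as an interaction over 16 libraries, was called for 171 of 16422 genes (1.04%), 137 higher in XX (0.834%) and 34 lower (0.207%), and for 215 (1.31%) without replicate 5. The count rose to 1590 without XY WT replicate 3 and fell to 71 and 82 without XX WT replicate 2 or 3 and to 82 and 90 without XY WT replicate 1 or 2. Of the 31 genes of the 3 Sertoli lists 13 were called higher and none lower, and of 22 pregranulosa genes none was called. Sox9 differed by 3.40 ± 0.30 (adjusted p = 0.000102), from XY homozygotes at 285, 236, 204, 214 and 226 CPM. Fgf9 differed by 2.93 ± 0.26 (adjusted p = 0.000102), Dhh by 5.51 ± 0.90 (adjusted p = 0.00713) and Cdkn1b by −1.41 ± 0.19 (adjusted p = 0.00293).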

How the data were processed

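Per the labels' protocols, RNA of whole gonads was extracted with a Qiagen RNeasy Plus micro kit and made into poly(A) libraries with NEB kits. Per the submitters' processing notes the build was mm10. Aligner, quantifier and strand setting are not given in the sources used. From these reads the authors deposited a table of estimated counts per gene symbol, with 33331 rows and 8.0 to 8.9% of values not whole, which were rounded here. They also deposited a table of TPM, used for 1 alternative and for relative gene length. Each table has 1 column with no matching sample, which was not used. Pairs of libraries within the groups differed far beyond sampling noise (chi-square per degree of freedom 13.28 or more).

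The main test was the quasi-likelihood F test of edgeR 4.0.16 in R 4.3.3, with robust dispersions, TMM scaling and the filterByExpr filter, on the libraries of the groups compared. A call is an adjusted p under 0.05 after Benjamini-Hochberg adjustment over all genes tested. The SE is the absolute log2 fold change over the square root of F. On simulated counts for XX homozygotes against XX WT, 82 of 100 genes changed by 1 and 99 of 100 changed by 2 on the log2 scale were called, with 9 false calls among 15846 genes. The simulated libraries held no gene length trend and none that stood apart, and only genes above a set level were changed. These rates therefore need not hold for the real libraries. The members and the 27 gene lists (304 genes, 301 in the table) were chosen with earlier results of these data known, and most counts of their calls stand beside the share over all genes. Named genes are Sox9, members of the lists and, outside them, the 15 called genes with the largest rise and the 15 with the largest fall (groups apart with and without replicate 5, mean log2 CPM from 1 up), 8 on each side in the other 2 comparisons, and the 10 on each side with the widest gap of replicate 5. Not all of those 8 are named, and the values of some listed genes are not reported here. The liver, beta globin and neural crest lists were added after values were seen. Alternatives were DESeq2 1.42.0, RLE size factors, no expression filter, 1 fit over all 12 groups, the replicate number as a block, removal of the gene length trend (a lowess fit with span 0.3 per library) and each library left out in turn. Chromosomes were matched for 31180 genes (93.5%). Promoters come from RefSeq (GRCm38.p6).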

Additional observations from a re-analysis of the deposited data

Results flagged for a closer look

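Within the 5 XX homozygotes, 1 library lay far from the other 4 for 24 of the listed genes reported here, by a test that flags about 1 in 20 groups by chance. How many listed genes were checked is not reported here, so the 24 is not read as a result about them. Over 12812 genes, the within-group check flagged homozygotes 1 to 5 for 0.67%, 0.72%, 0.4%, 1.61% and 3.32%. Replicate 5 was that library for 17. It was highest for Hhip (93.9 CPM), Hsd3b1 (75.2 CPM), Fdx1 (25.7 CPM), Hsd17b7 (18.5 CPM), Vnn1 (37.7 CPM), Cldn11 (31.4 CPM), Pdgfra (414 CPM), Hbb-bt (1550 CPM), Lamb2 (58.2 CPM), Nid1 (397 CPM) and Mvd (32.3 CPM). It was lowest for Wt1 (292 CPM), Runx1 (10.2 CPM), Lhx9 (219 CPM), Lypd6 (8.66 CPM), Fgfr1 (110.0 CPM) and Ccnd1 (149 CPM). Replicate 4 was lowest for the germ cell genes Pou5f1 (47.2 CPM), Dppa5a (53.6 CPM) and Prdm1 (15.7 CPM), and for Egr1 (10.7 CPM) and Xist (40.9 CPM), and highest for Kcnj2 (12.4 CPM). Replicate 1 was highest for Sc5d (25.5 CPM).

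The effect of the insertion differed between XX and XY, by the interaction term of edgeR at an adjusted p under 0.05, for 21 of the listed genes, given as the XX minus the XY log2 fold change. Over all 16422 genes tested the share called was 1.04% (171 genes), and that total ran from 71 to 1590 with 1 library left out. Among Sertoli genes it was 3.40 for Sox9, 2.65 for Sox8, 9.46 for Amh, 5.51 for Dhh, 2.93 for Fgf9, 4.69 for Gdnf, 4.0 for Cst9, 3.50 for Aard, 4.92 for Tesc, 5.06 for Mmd2, 2.39 for Cyp26b1, 6.34 for Hsd17b3 and 4.13 for Cbln4. It was 1.31 for Spry4, 0.72 for Dusp6, 1.74 for Etv4, 4.16 for Lefty2, 0.92 for Efnb2, 1.11 for Ccnd1, −1.41 for Cdkn1b and 4.68 for BC006965. None of these genes was called by edgeR in the XY homozygotes against XY WT, while Sox9 (0.78) and BC006965 (1.52) were called higher there by DESeq2 (adjusted p = 0.0242 and 0.000797) and in the edgeR fit over all 12 groups (0.0211 and 0.0321).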

How the results depend on the processing

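Calls in XX homozygotes against XX WT numbered 5187 and stayed within 1.5 times under RLE size factors (5199), no filter (4670), DESeq2 (5865) and 1 fit over all 12 groups (6137), fell to 3373 with the gene length trend removed, and ran from 3026 to 5604 with 1 library left out. Against XY WT the 20 calls (8 higher, 12 lower) became 638 with DESeq2 (405 and 233), 1960 in the fit over all groups, 38 with the length trend removed (24 and 14), 33 with no filter, and 6 to 575 with 1 library left out. For XY homozygotes DESeq2 gave 120 and the fit over all groups 802 (273 higher, 529 lower), edgeR 0 with any 1 library left out. The 171 interaction calls (137 higher, 34 lower) became 409 with DESeq2 (284 and 125), 512 in the fit over all groups, and 71 to 1590 with 1 library left out. The replicate numbers gave no clear pairing of the libraries (correlations of same-numbered XX libraries 0.152, 0.155 and −0.129, and homozygotes 4 and 5 have no partner). For homozygotes 1 and 2 the same-numbered XX WT library was the best match, and for homozygote 3 it was XX WT replicate 1 (0.160). With the replicate number as a block the counts were 4859, 1, 0 and 133. Directions turned under the block for Hhip (−1.53), Cyp17a1 (−0.61), Osr2 (−0.79), Apoa1 (−1.72), Apob (−3.80) and Trf (−0.48), where replicate 5 has no partner and so does not enter the contrast. They turned without replicate 5, the lowest of the values with 1 library left out, for Hhip (−1.58 to 3.36), Afp (−2.98 to 3.15), Osr2 (−0.86 to 0.67) and Trf (−0.42 to 0.26). With the length trend removed they turned for Igf1r (0.37, called, edgeR adjusted p = 0.00961) and Gli3 (0.06, not called). On log2(TPM + 1) replicate 4 lay nearer to XY WT, by 0.01. The causes were not tested. Depth limits genes with 0 to 10 counts in wild type, such as Amh and Hsd17b3.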

Other observations

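Of 14 factors of the bipotential gonad 3 were called higher in XX homozygotes against XX WT (Nr5a1 and Gata4 among them) and 2 lower (Insr and Igf1r), near the 17.2% and 15.1% of all genes, with a median of 0.04, and without replicate 5 Nr0b1 was also called higher and Emx2 lower. Of 10 activin and inhibin genes 1 was called higher (Inhbb) and 4 lower (Fst, Acvr1b, Acvr2b and Smad3), beside 17.2% and 15.1% of all genes, and without replicate 5 Inha was also called higher. With the length trend removed Insr (−0.13, edgeR adjusted p = 0.238), Acvr1b (−0.20, adjusted p = 0.127) and Smad3 (−0.07, adjusted p = 0.481) were not called. Igf1r was then called in the other direction, higher by 0.37 (adjusted p = 0.00961). Without XX WT replicate 3 the calls of Igf1r, Acvr1b and Smad3 were lost (adjusted p = 0.0835, 0.0727 and 0.0720). Of 9 tested immediate early genes 3 were called higher and 1 lower, beside 17.2% and 15.1% of all genes, with and without replicate 5 (Atf3, lost without XX WT replicate 2, 0.128). Jun, an AP-1 subunit, measured 81.2, 83.1, 94.8, 88.7 and 76.7 CPM against 53.7, 58.3 and 54.5 CPM (0.63 ± 0.08, adjusted p = 0.00109), while Egr1 (0.43 ± 0.11) was no longer called without XX WT replicate 1, 2 or 3 (0.0514, 0.0628 and 0.0641). Of 15 cholesterol synthesis genes 6 were called higher and 1 lower, beside 17.2% and 15.1% of all genes, and 5 and 2 without replicate 5 (Sqle lost), of which Sqle, Fdft1 and Fdps were lost without XX WT replicate 3 (0.163, 0.0960 and 0.0741) and Cyp51 and Msmo1 without XX WT replicate 2 (0.0535 and 0.0707). Insig1, a sterol-regulated brake of the pathway, rose by 0.38 ± 0.07.

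Ahsg, fetuin A, was the 1 gene called higher among 8 tested liver genes and was spread less than Afp: it measured 5.22, 4.16, 5.09, 2.51 and 7.11 CPM in homozygotes 1 to 5, 0.492, 0.564 and 0.746 CPM in XX WT and 6.24, 6.76 and 1.85 CPM in XY WT (3.02 ± 0.36, adjusted p = 0.000967). The gene was singled out after its values were seen. The other liver genes had no call with all 5 homozygotes, and Afp and Trf were called lower without replicate 5. Of 4 beta globin genes 1 was called higher (Hbb-y), and none without replicate 5. Of 5 tested neural crest and Schwann genes 1 was called higher (Sox10), and 3 without XX WT replicate 1. Beside these liver, globin and neural crest counts, 17.2% of all genes were called higher in the main fit. Without XX WT replicate 1 the 3 Sertoli lists had 20 calls of 31, all higher, and the 2 pregranulosa lists 12 of 22, all lower. Of all 16258 genes tested in that fit, 1935 were called higher and 1859 lower.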
